A study of Mus musculus with 5 samples.

Results

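Neurofilament subunits and the related intermediate filament proteins vimentin and nestin were followed in N18 mouse neuroblastoma cells that received extra Dyrk1a. The members were the genes Nefl, Nefm, Nefh, Ina, Prph, Vim and Nes, 7 of the 19087 genes named on the array, taken by symbol as a family, with earlier results of these data known. The platform annotation assigned 10 of the 44290 features to them. Cells infected with an adenovirus that carries the Dyrk1a coding sequence (pAd-Dyrk1a) were compared with cells infected with the adenovirus control vector (pAd-Track-CMV), so both groups carried virus. N18 is an established mouse neuroblastoma line, and no time after infection, dose of virus or share of infected cells is stated in the labels. Each of 5 two-colour Agilent arrays paired a Dyrk1a sample with a control vector sample, with Dyrk1a RNA in Cy5 on replicates 1, 2 and 3 and in Cy3 on replicates 4 and 5.

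Intermediate filaments are rope-like polymers of coiled-coil proteins. In mature neurons the light, medium and heavy neurofilament subunits, encoded by Nefl, Nefm and Nefh, assemble with alpha-internexin (Ina) or peripherin (Prph) and fill the axon, where they set its calibre. Dividing neural progenitors use vimentin (Vim) and nestin (Nes) instead, and the exchange of these filaments for neurofilaments is a textbook feature of neuronal differentiation. Peripherin marks peripheral neurons and is common in neuroblastoma cells.

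The sequences just upstream of the transcription start show how the promoters of these genes differ in build. RefSeq promoter windows (GRCm38.p6) matched 4 of the 7 members, and the 120 bases before the start are printed here 5′ to 3′. Capitals mark matches on either strand to TATAAA, the core of a TATA box, to CCAAT (reverse complement ATTGG), or to GGGCGG (reverse complement CCGCCC), the core of a GC box. The letters searched for did not overlap one another.
Prph, chr15:99055054-99055173, + strand: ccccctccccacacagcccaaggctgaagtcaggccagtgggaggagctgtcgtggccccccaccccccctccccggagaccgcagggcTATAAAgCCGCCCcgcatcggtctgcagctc
Ina, chr19:47014561-47014680, + strand: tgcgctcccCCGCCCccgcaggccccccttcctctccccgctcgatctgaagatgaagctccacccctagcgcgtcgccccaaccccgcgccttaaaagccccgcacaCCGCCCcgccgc
Vim, chr2:13574191-13574310, + strand: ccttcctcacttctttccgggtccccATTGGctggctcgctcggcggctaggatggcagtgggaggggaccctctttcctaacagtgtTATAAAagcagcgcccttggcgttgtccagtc
Nes, chr3:87970973-87971092, + strand: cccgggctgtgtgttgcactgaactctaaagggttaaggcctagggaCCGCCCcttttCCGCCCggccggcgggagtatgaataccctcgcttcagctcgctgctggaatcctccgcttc
Prph and Vim each held 1 TATAAA match, Nes and Ina held none, and 6.34% of all 32851 promoter windows of this length held one. GGGCGG matched 2 times in Nes, 2 times in Ina and 1 time in Prph, against 26.5% of all windows with any match, while CCAAT matched only in Vim, against 21.3%. These matches describe letters in a window and were not tied to any change on the arrays.

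The values are log2 ratios, Dyrk1a divided by control vector, each centred on the median of its array, so 0 means the same share of signal as the typical feature. The log base and the direction were inferred from the deposited values. If the base were natural, every log2 value given here would grow by a factor of 1.44, with no change of sign or p. A still larger base would raise the values, and the fold ratios, by more. The table gave a value for 63.8% to 70.0% of features per array, and what a blank stands for is not stated in the labels or file headers. Because ratios hold no level, the abundance of each filament transcript, and the identity of the line from its markers, could not be read. Of 16 neuroblast markers 14 were named on the array and 11 had a value on all 5 arrays. In RNA from whole cultures, fewer cells with a transcript and less of it per cell cannot be told apart. The Dyrk1a reference probe ran from 1.93 in replicate 3 to 3.02 in replicate 4, above 0 on every array. Because the direction was read from this probe, its sign is not an independent check of the labels.

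Over all genes, limma called 1 gene of 11191, Dyrk1a, which rose, or 0.00894% at an adjusted p under 0.05, and 0.0% fell. At an unadjusted p under 0.05 it gave 587 genes higher, 5.25%, and 714 lower, 6.38%. Against that background, 4 members had a probe measured on all 5 arrays and were tested, Nefh, Prph, Vim and Nes. Of these 0 passed the adjusted threshold, and 2 were at an unadjusted p under 0.05, Nefh on the higher side and Nes on the lower. Nefl, Nefm and Ina had no probe with 5 values and are given array by array without a test. A blank was common on this platform, since 53.0% of single-gene probes had a value on all 5 arrays and 4.79% on none. For the members it was 4 of 10 probes on all arrays and 2 of 10 on none.

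Nefh, the heavy neurofilament subunit whose long, heavily phosphorylated tail projects from the filament, was the only tested member with the same sign on all 5 arrays. Its probe with 5 values had log2 ratios of 0.107, 0.175 and 0.024 in replicates 1 to 3, the Cy5 orientation, and of 0.254 and 0.116 in replicates 4 and 5, the Cy3 orientation. All 5 arrays were therefore above 0, replicate 3 barely so, and both dye orientations showed the same direction. Of all tested genes, 6.71% were above 0 on every array. The mean was 0.135 ± 0.0853 (SD, n = 5) and the fit put the log2 change at 0.143 (SE 0.0419, 95% interval 0.0404 to 0.246), a 1.10-fold ratio. It did not pass over all features in limma (adjusted p = 0.286), although only 4.26% of genes had a higher fitted change. A second Nefh probe for the same transcript, blank on replicates 2 and 4, stood at -0.187, 0.057 and 0.144 in replicates 1, 3 and 5. On replicate 1 the probes lay on opposite sides of 0, so the probes of this gene did not give 1 answer. Averaging whichever probes were measured gave a fitted log2 change of 0.127 (limma adjusted p = 0.475).

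Nefl encodes the light subunit on which the other neurofilament proteins depend for assembly. Its reference transcript probe had log2 ratios of -0.205, -0.078 and -0.11 in replicates 2, 4 and 5 and was blank on the others, and a second Nefl probe was blank on every array. The 3 measured arrays were thus all below 0, on the other side from the 5-array Nefh probe. Nefm, the medium subunit, had 1 probe, blank on every array, and its transcript was not analysed here. For Ina, the alpha-internexin gene, expressed early in neuronal development, the log2 ratios were 0.035 in replicate 3, a Cy5 array, and -0.126 and -0.208 in replicates 4 and 5, the Cy3 arrays. With 1 array in one orientation and 2 in the other, the sign followed the dye. The ratios of the neurofilament genes thus lay on both sides of 0, with those of Nefl and Ina from 3 arrays each and not tested.

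Prph held the widest spread of the members. Its log2 ratios were -0.187, 1.494 and -0.19 in the Cy5 orientation, then 0.016 and 0.014 in the Cy3 orientation. Replicate 2 stood alone, far above the other arrays, while replicates 1 and 3 were below 0 and replicates 4 and 5 next to it. In replicate 2 only 5 of the 11191 tested genes had a higher log2 ratio than Prph. The mean of 0.229 ± 0.714 (SD, n = 5) was smaller than its SD, and the fitted log2 change of 0.194 had a 95% interval from -0.448 to 0.835 (limma adjusted p = 0.847). Without replicate 2 the fitted log2 change turned to -0.0866 (SE 0.0277, limma adjusted p = 0.170). The direction of Prph thus rested on 1 array. That array also had the widest interquartile range over tested features, 0.293 against 0.153 to 0.175 in the other arrays.

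**Figure D1:**
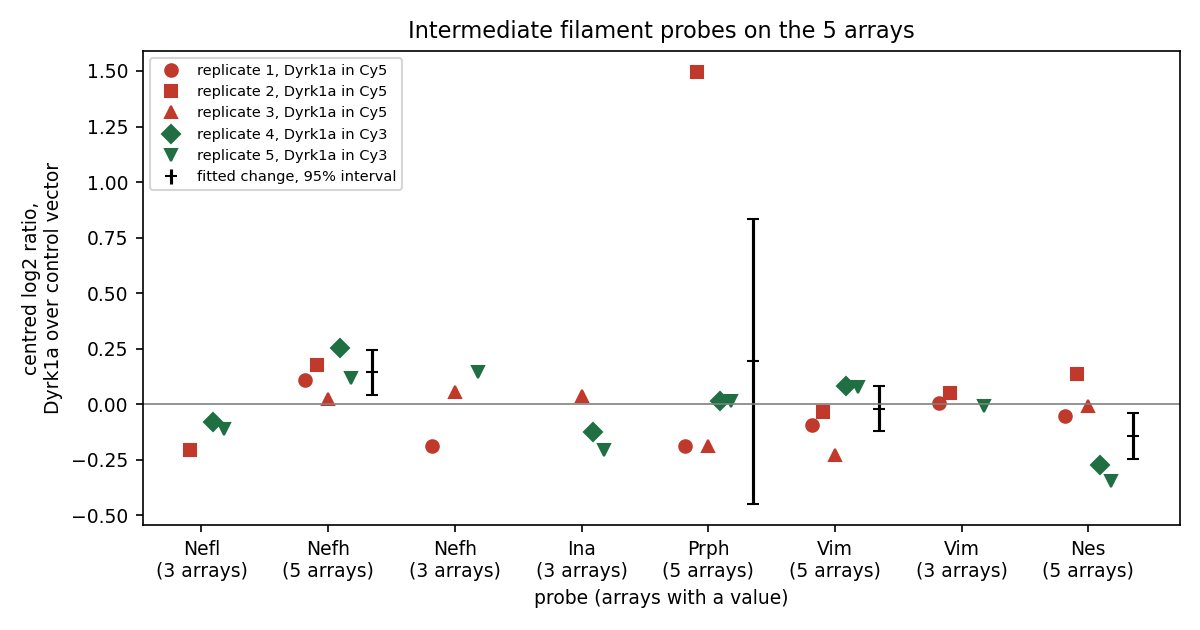
Centred log2 ratio of Dyrk1a over control vector (y axis) for each member probe with a value (x axis), 1 point per array, coloured by the dye of the Dyrk1a sample, with the fitted change and its 95% interval for the 4 probes measured on all 5 arrays. The 5-array Nefh probe lies above 0 throughout, Nes is lowest on replicates 4 and 5, and Prph in replicate 2, at 1.494, lies apart from all other points.

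Nes encodes nestin, the filament protein of dividing neural progenitors. It had log2 ratios of -0.052, 0.135 and -0.007 in the Cy5 orientation and of -0.274 and -0.345 in the Cy3 orientation. Nes was lower in 4 of 5 arrays, by far more in the Cy3 orientation, and replicate 2 was the exception. In replicates 4 and 5 only 2.9% and 0.768% of tested genes had a lower ratio, whereas in replicates 1 to 3 Nes lay between 30.9% and 70.9%. In the fit Nes stood at -0.142 (SE 0.0421, 95% interval -0.246 to -0.0386), a 1.10-fold lower level that did not pass over all features (limma adjusted p = 0.295). The dye term for Nes was larger than the Dyrk1a term, at 0.168 (unadjusted p = 0.00764, limma adjusted p = 0.122). Means by orientation were 0.0253 in Cy5 and -0.31 in Cy3, so the sign of the mean changed with the dye. Without the dye term the log2 change of Nes was -0.109 (SE 0.076), with a limma unadjusted p of 0.198 and an adjusted p of 0.753. The low unadjusted p of Nes thus depended on the dye term, and the cause of the split by dye was not tested. Over all tested genes the dye term passed for 1.33%.

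Nes passed the threshold under 2 of the 14 alternatives. Without replicate 2 its log2 change was -0.170 (limma adjusted p = 0.0481), where 2.5% of tested genes were called lower, and with array weights it was -0.175 (limma adjusted p = 0.00737), where 6.41% were. Nefh passed with array weights only, at 0.142 (limma adjusted p = 0.0230), where 5.56% of tested genes were called higher. Array weights gave replicate 1 a weight of 3.74 and replicate 2 one of 0.148. Across the alternatives run, Nefh stayed above 0 and Nes below 0.

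Vim encodes vimentin, the filament of progenitors, glia and mesenchymal cells. Its reference probe had log2 ratios of -0.093, -0.036 and -0.23 in the Cy5 orientation and of 0.082 and 0.077 in the Cy3 orientation. The orientations fell on opposite sides of 0, with no overlap between them, in the reverse order to Nes. Such a split by dye in all 5 arrays was seen for 16.8% of tested genes. In the fit Vim stood at -0.0202 (95% interval -0.122 to 0.0817, limma adjusted p = 0.912), with -0.0411 without replicate 2 and 0.00737 without replicate 3. A second Vim probe, to a cDNA clone, had log2 ratios of 0.006, 0.052 and -0.01 in replicates 1, 2 and 5, all near 0. The interval for Vim reached -0.122 below 0 and 0.0817 above it on the log2 scale, and did not settle a direction.

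**Figure D2:**
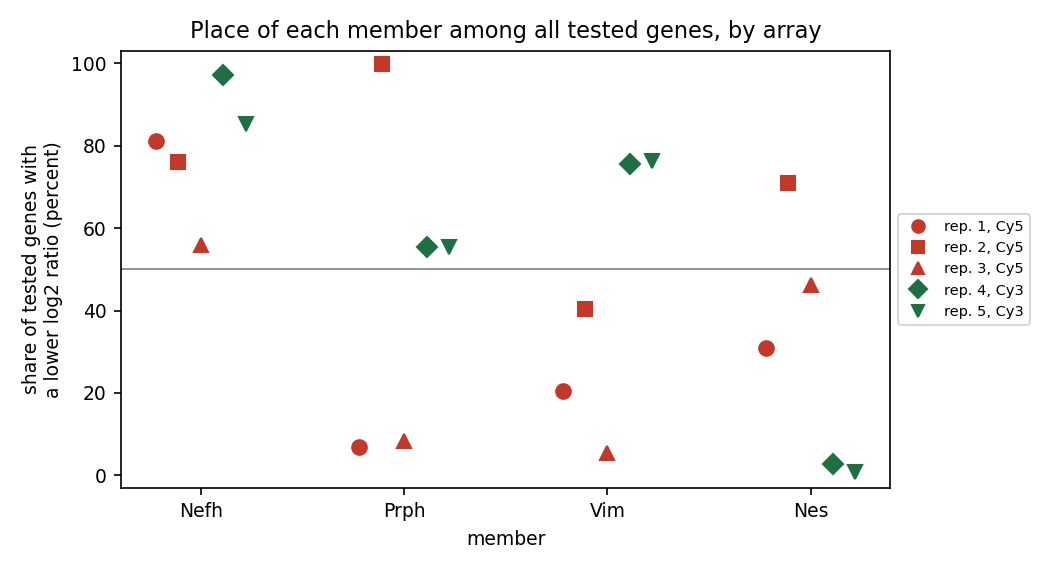
Share of the 11191 tested genes with a lower log2 ratio than the member (y axis, percent) for the 4 tested members (x axis), 1 point per array, coloured by the dye of the Dyrk1a sample. Nefh runs from 56.0% to 97.2% and lies above the middle on every array, while Prph runs from 6.82% to 99.9%.

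Set against each other within each array, the 5-array Nefh probe exceeded both progenitor filaments on every array. The second Nefh probe was not used here. In replicate 1 it stood at -0.187, below Vim at -0.093 and Nes at -0.052. Nefh minus Nes was 0.159, 0.040, 0.031, 0.528 and 0.461 in replicates 1 to 5, a mean of 0.244 ± 0.236 (SD, n = 5). Replicates 4 and 5, the Cy3 arrays, carried most of that difference. For Nefh minus Vim the differences were 0.200, 0.211, 0.254, 0.172 and 0.039, a mean of 0.175 ± 0.0816 (SD, n = 5). Each gave a two-sided exact sign-flip permutation p of 0.0625 (n = 5), the smallest that 5 arrays allow, and 0.1875 after Benjamini-Hochberg adjustment over the 6 pairs. Unlike the fit, the sign-flip test held no dye term. These differences compare changes, not levels of different transcripts. Vim minus Nes averaged 0.0686 ± 0.301 (SD, n = 5), positive in 2 of 5 arrays (exact permutation p = 0.6875). Its sign followed the dye, with -0.041, -0.171 and -0.223 in the Cy5 orientation and 0.356 and 0.422 in the Cy3 orientation. For the 3 pairs with Prph the exact permutation p was 0.3125 to 1.

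The genes whose 5 ratios lay nearest to a member's, by root mean square difference over the 5 arrays, are given as a description. For Nefh they were Padi2, a peptidylarginine deiminase gene, at 0.0326 and Fam117a at 0.0364. Nearest to Nes were Cep131, which encodes a centriolar satellite protein, at 0.0531 and Bcl7a, a SWI/SNF subunit gene, at 0.0572. Vim lay nearest to Zbtb20, a zinc finger repressor gene, at 0.0224 and Commd2 at 0.0230. Prph lay farther from its nearest genes than the other tested members did, as it did from genes at large. The nearest 1% of genes reached to 0.34 for Prph, against 0.0635 to 0.116 for the other tested members. Its nearest genes were Mbd3, a NuRD complex gene, at 0.124 and the aminopeptidase gene Xpnpep1 at 0.144, and both shared the high replicate 2, with log2 ratios there of 1.264 and 1.328.

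**Figure D3:**
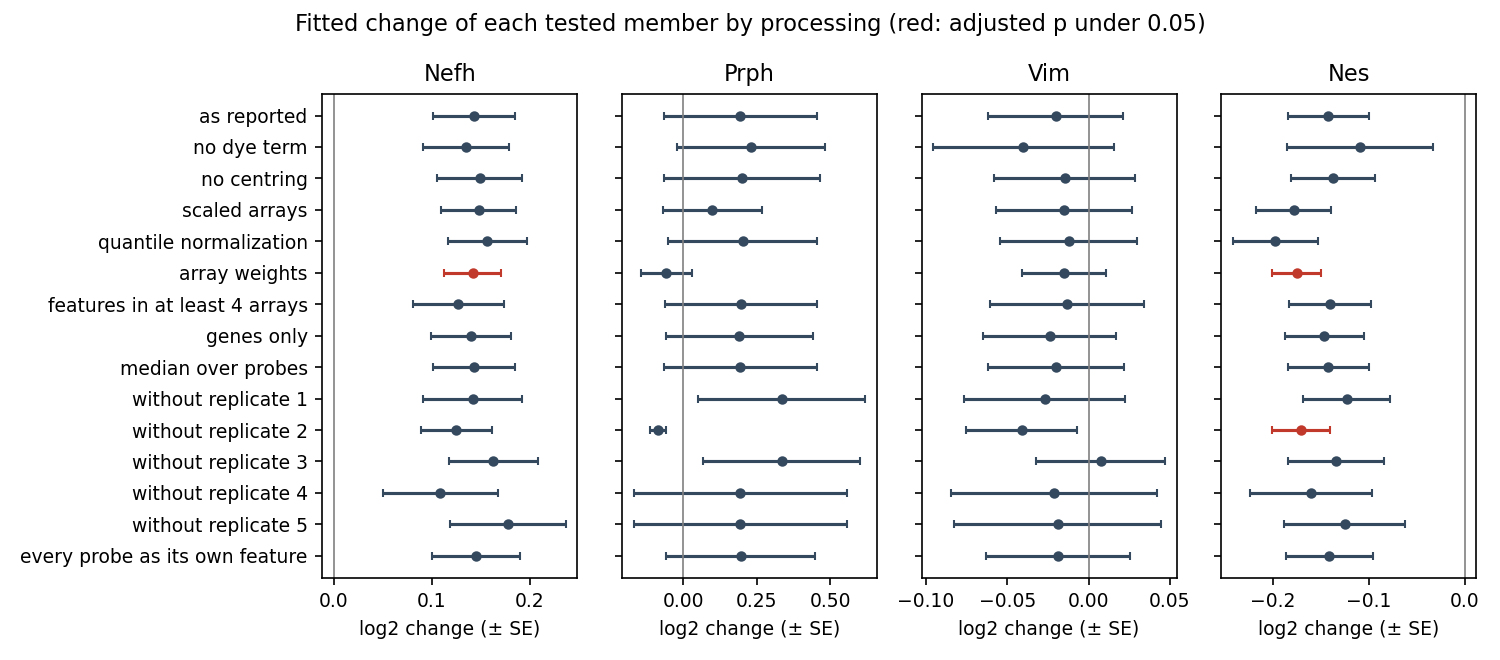
Fitted log2 change of Dyrk1a over control vector with its SE (x axis, scaled separately for each gene) for the 4 tested members under the reported processing and 14 alternatives (y axis), red where limma's adjusted p was under 0.05. Nefh lies above 0 and Nes below 0 throughout, while Prph is below 0 with array weights and without replicate 2.

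Genes that act with these filaments were read from lists of their structural relatives, linkers, turnover factors, modifying enzymes, motors, RNA-binding proteins and transcription factors. Apart from the members and cell type markers the lists named 80 genes, of which 71 were on the array and 52 were tested. In limma 0 of these passed. Its unadjusted p was under 0.05 for 8 on the higher side and 5 on the lower, against 5.25% and 6.38% of tested genes. The 52 genes had a median log2 change of 0.030, with 33 above 0. Over all 11191 tested genes the median was 0.00796, with 6139 above 0. Without replicate 2 these medians were 0.00737 and 0.00387, with 27 of the 52 and 5875 of all genes above 0. Limma then called 2 of the 52 higher and 3 lower, against 0.858% and 2.5% of all tested genes. With array weights it called 9 higher and 5 lower, against 5.56% and 6.41%.

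Few structural relatives were measured. Of 6 other type III and type IV filament genes 1 was tested, Synm, the synemin gene, at -0.033 (SE 0.0531), or -0.0635 without replicate 2. Of 5 simple epithelial keratin genes 1 was tested, Krt8, at 0.0257 (SE 0.0359). The 3 lamin genes, which encode the nuclear intermediate filaments, lay on both sides of 0. Lmnb1 was at -0.423 (SE 0.0375), below 0 in 5 of 5 arrays (limma adjusted p = 0.0605), and Lmnb2 at -0.120 (SE 0.0374), also lower in 5 of 5. Of all tested genes, 6.34% were below 0 on every array. Lmna, of the A-type lamins found in differentiated cells, was at 0.155 (SE 0.0588) and higher in 5 of 5, with an adjusted p of 0.419 in limma. Without replicate 2 Lmnb1 passed (limma adjusted p = 0.0192), where 2.5% of tested genes were called lower, and Lmna was at 0.101. With array weights all 3 passed, Lmna at a limma adjusted p of 0.0482, Lmnb1 at 0.00114 and Lmnb2 at 0.025, where 12.0% of tested genes were called in either direction.

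Motors that carry neurofilaments and other axonal cargo had the highest median of the lists of related genes, members and cell type markers aside. Of 8 tested 7 were above 0, as were 6139 of all 11191 genes. The 8 had a median log2 change of 0.0993, or 0.0752 without replicate 2, and 0 passed. Kif1a, which carries synaptic vesicle precursors, was at 0.239 (SE 0.040), above 0 in 4 of 5 arrays (limma adjusted p = 0.109). Kif5a, the neuronal kinesin heavy chain implicated in neurofilament transport, was at 0.199 (SE 0.0575) and above 0 in 5 of 5 (limma adjusted p = 0.283). Both passed without replicate 2, at 0.227 and 0.245 (limma adjusted p = 0.0367 and 0.0316), where 0.858% of tested genes were called higher. The ubiquitous heavy chain gene Kif5b was at -0.0555 (SE 0.048).

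Enzymes that phosphorylate or dephosphorylate filament proteins lay on both sides of 0, with 11 of 17 tested above 0 and a median log2 change of 0.0321, or -0.00281 without replicate 2. The kinase genes Aurkb and Cdk1, which phosphorylate vimentin in mitosis, were at -0.357 (SE 0.038) and -0.299 (SE 0.032), each lower in 5 of 5 arrays (limma adjusted p = 0.0605), and both passed without replicate 2, as did 2.5% of tested genes on the lower side. Mapk10, the neuronal JNK gene, was at 0.112 (SE 0.0373) and Ppp2r2b, a brain-enriched regulatory subunit gene of protein phosphatase 2A, at 0.0958 (SE 0.0326). Both were above 0 in 5 of 5 arrays and did not pass in limma, with adjusted p of 0.348 and 0.360.

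Of turnover and chaperone genes 7 of 7 tested were above 0, as were 6139 of all 11191 genes, with a median log2 change of 0.0635, 0 passing and 0 at an unadjusted p under 0.05 in limma. Without replicate 2 it was 6 of 7, with a median of 0.040. Hspb8, a small heat shock protein gene, was at 0.164 (SE 0.0692), or 0.10 without replicate 2, and Uchl1, the neuronal ubiquitin hydrolase gene, at 0.0619 (SE 0.036). Linker genes had a median of 0.00411 over 4 tested, which turned to -0.0347 without replicate 2. Among them the plakin gene Macf1 was at 0.129 (SE 0.0561), the plectin gene Plec at 0.00767 (SE 0.0792) and the envoplakin gene Evpl at -0.032 (SE 0.0377). Without replicate 2 Plec was at -0.0666 and Evpl at -0.0512. Genes of proteins that bind neurofilament or other neuronal mRNAs had a median of 0.0005 over 5, or -0.0015 without replicate 2. Elavl4, the neuronal HuD gene, was at 0.116 (SE 0.0346) and above 0 in 5 of 5 arrays. Elavl3 was at 0.0706, or 0.0419 without replicate 2, and Elavl2 at -0.0245. Tardbp, which encodes TDP-43, was at -0.0589, below 0 in 5 of 5 arrays but not passing (limma adjusted p = 0.629).

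Transcription factors of neural progenitor or neuronal genes had 6 of 6 tested below 0, by little, as were 5052 of all 11191 genes. The 6 had a median log2 change of -0.0323, and 0 passed, with 0 at an unadjusted p under 0.05 in limma. Without replicate 2 the median was -0.0534 and 2 of the 6 were above 0. Rest, the repressor of neuronal genes, was at -0.0411 (SE 0.0398), or -0.0646 without replicate 2. Its log2 ratios were 0.018, 0.152 and 0.003 in the Cy5 orientation and -0.178 and -0.102 in the Cy3 orientation. The sign of Rest thus followed the dye, as for 16.8% of tested genes. Ebf3, an early B-cell factor gene of neurons, was at -0.0834 (SE 0.0397), lower in 5 of 5 arrays (limma adjusted p = 0.526). Sox2, an activator of Nes in progenitors, had no probe on all arrays.

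**Figure D4:**
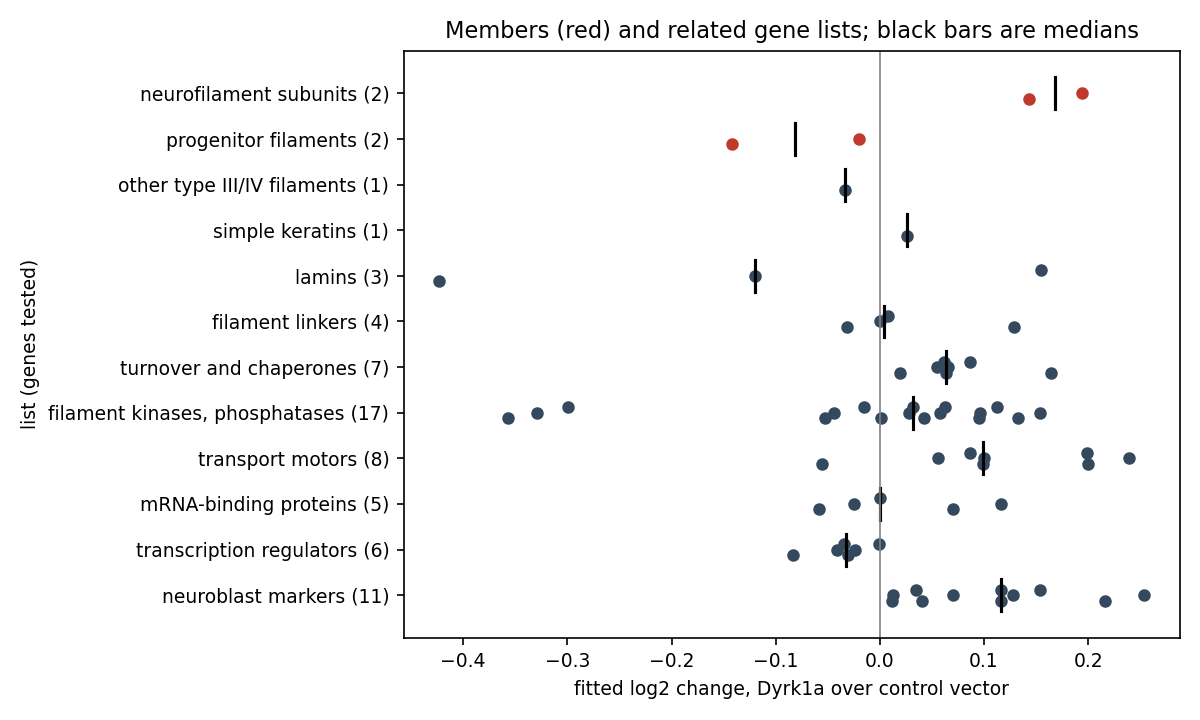
Fitted log2 change of Dyrk1a over control vector (x axis) for every tested gene of each list (y axis, genes tested in parentheses), with the 4 tested members in red and black bars at list medians. Motors have a median of 0.0993 and neuroblast markers one of 0.116, while the lamins run from -0.423 to 0.155.

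The fitted changes of the listed neuroblast markers lay on the same side of 0 as that of Nefh. All 11 tested neuroblast markers had a fitted log2 change above 0, as did 6139 of all 11191 genes. Those of the markers ran from 0.0112 to 0.254, with a median of 0.116, or 0.0546 without replicate 2. In limma 0 passed and 3 were at an unadjusted p under 0.05, as were 5.25% of tested genes on the higher side. These were Tubb3, Elavl4 and Gap43, the only markers of the 11 above 0 on all 5 arrays, as were 6.71% of tested genes. Elavl4 was also counted among the mRNA-binding proteins. Without replicate 2, 10 of the 11 were above 0 and 2 passed, Tubb3 and Gap43 (limma adjusted p = 0.0428 and 0.0281). At that setting 0.858% of tested genes were called higher. With array weights 4 passed, where 5.56% of tested genes were called higher. Of markers of other cells, 1 of 10 glial genes was tested, Aqp4, at -0.0382, or 0.000875 without replicate 2. Of 10 fibroblast and muscle genes 4 were tested, with a median of 0.0526 that turned to -0.0418 without replicate 2. Of 8 immune genes 1 was tested, Cd3e, at 0.00887, or 0.0741 without replicate 2. Glial Gfap and muscle Des, themselves intermediate filament genes, lacked a probe with 5 values. Summed levels of these markers could not be formed from ratios, and their part in the values of Nefh, Vim and Nes was not tested.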

How the data were processed

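The values were the authors' deposited log2 ratios, 1 per feature and array, in a table of 44290 features and 5 columns, with 0 columns of other samples. The scanner, background correction and normalization are not given in the sources used here. Their log base was inferred from the range of values, -4.2 to 4.147. The direction was read from the Dyrk1a probe, above 0 in both dye orientations. In addition, 173 of 173 unnamed features beyond 0.5 in size on every array changed sign with the dye, so the swapped columns were read as turned before deposit. The 5 measurements are called independent in the series' design text. Probes with 1 gene symbol numbered 32042, those with several 47 and unnamed features 12201. Of the first, 31906 matched a GRCm38.p6 gene table, used for names only.

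A gene's value was the mean of its probes measured on all 5 arrays, 11191 genes, tested with 3116 other features, 14307 in all. Arrays were centred on the median of these. Changes were tested in limma 3.58.1 (R 4.3.3, lmFit and eBayes, two-sided) with the Dyrk1a effect and a dye effect per gene, leaving 3 residual and 2.87 prior degrees of freedom, and Benjamini-Hochberg adjustment over all 14307. The fit was tested on simulated data, with changes larger than any fitted for a member and the same noise on every array. That test therefore did not cover changes as small as those of the members, or an array as wide as replicate 2. SE and 95% intervals are moderated, and the number of arrays limits precision. The 7 members and the lists were chosen with earlier results of these data known. Named were all members, Dyrk1a, Rest, up to 2 genes per list and direction with the smallest p, and the 2 genes nearest to each tested member. Sox2, Gfap, Des, Aqp4, Cd3e, Tubb3 and Gap43 are mentioned outside that rule. Alternatives changed the dye term, centring, scaling, weights, probe averaging, the blank filter, the features tested and the arrays. Ratios alone allow no filter on dim spots.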

Additional observations from a re-analysis of the deposited data

Results flagged for a closer look

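Prph in replicate 2, with a centred log2 ratio of 1.494, was far from its 4 other arrays, which ran from -0.19 to 0.016. Its gap to the nearest of them was 0.877 of the whole range, above Dixon's critical value of 0.71 for 5 samples. Chance alone puts about 1 in 20 groups past that value, and over all tested genes 9.5% were past it, 1063 genes, of which 836 had replicate 2 as the array farthest from the median. Of Nefh, Vim and Nes, none was past it, with quotients of 0.362, 0.44 and 0.296.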

How the results depend on the processing

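Over the 14 alternatives run, Nefh kept its direction in all, with log2 changes of 0.109 to 0.178 when 1 array was left out, and 0.142 with array weights, where it passed. Nes kept its direction too, from -0.17 to -0.123 with 1 array left out, and passed without replicate 2 and at -0.175 with array weights. Prph turned to -0.0583 with array weights and ran from -0.0866, without replicate 2, to 0.334 with 1 array left out. Vim ran from -0.0411 to 0.00737, the latter without replicate 3. Members called were 2 with array weights, 0 to 1 with 1 array left out, and 0 otherwise. Genes called over the whole table were 1 as reported, 218 with scaled arrays (43 higher, 175 lower), 237 with quantile normalization (47 higher, 190 lower), 1339 with array weights (622 higher, 717 lower), 88 over named genes only (8 higher, 80 lower), and 0 to 376 with 1 array left out, the most without replicate 2 and 0 without replicate 1, 4 or 5. Genes of the lists called were 0 as reported, 4 with scaled arrays, 4 with quantile normalization, 14 with array weights, 3 over named genes only, and 0 to 5 with 1 array left out. The cause of these shifts was not tested. The comparison was paired by design, because each array sets 1 sample of each group against the other and the fit used these ratios. Signal over background was not used here, so its limit on Nefl, Nefm and Ina is unknown.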
